A study of Mus musculus with 13 samples.

Results

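The comparison of Batf-/- with wild-type effector CD8+ T cells after 3 days of culture rested on 8 of the 13 arrays in the series, chosen by their titles, with 4 arrays of each genotype. Every cell donor carried the P14 T cell receptor transgene on the C57Bl/6 background, so that most of the CD8+ T cells shared a single specificity, and the groups differed in the labels only in carrying BATF-/- or not. CD8+ T cells were purified by magnetic removal of other cells and were then stimulated for 3 days on plate-bound antibodies to CD3 and CD28 with 100 U/ml of recombinant human IL-2. The other 5 arrays, 2 wild type and 3 Batf-/-, held naive cells and served here only to ask whether a genotype difference at day 3 was already present before stimulation. The genotype label names no deleted segment, no cell type to which the deletion is limited and no animal ages, and the labels do not say whether replicates came from separate mice or cultures. The p-values therefore measure the spread between these arrays, which may be technical. All 34958 probe sets assigned to a single gene symbol were tested, and 18194 genes were described, each by its brightest probe set.

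BATF is a basic leucine zipper protein of the AP-1 family. It lacks a transactivation domain of its own and binds DNA together with a JUN protein at AP-1 sites, or with JUN and IRF4 or IRF8 at composite sites that join an AP-1 element to an interferon response element. It is induced by antigen receptor signals, and its loss is known to impair the expansion of CD8+ T cells and the programs that they turn on after activation.

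The arrays measured what their labels name, with 1 array in each genotype standing apart from its group. Of the 9 CD8+ T cell marker genes measured, 0 passed the test between genotypes. Cd8a, a chain of the CD8 co-receptor, had a mean log2 intensity of 11.85 in wild type and 11.69 in Batf-/- cells, and Cd3d, a chain of the receptor complex, 13.53 and 13.54. Median intensities lay between 31.8 and 32.3 in the 8 arrays. Of 11 marker lists of other cell types, those of B cells, NK cells, gamma delta T cells, neutrophils, monocytes, dendritic cells, platelets and stroma held 0 genes that passed. The regulatory T cell factor Foxp3 and the antibody joining chain Jchain rose by 0.35 and 0.39 near the background, where the call of Jchain was lost without both arrays that stand apart (adjusted p = 0.10), the erythroid heme enzyme Alas2 rose by 0.39, and Tnfrsf4 is described with the costimulatory genes. The principal component with the most variance (30.9%) placed the 4 wild-type arrays between -15.2 and -11.8 and the 4 Batf-/- arrays between 7.91 and 17.0. Batf-/- replicate 1 lay at -24.1 on the next component (16.8% of the variance), and wild-type replicate 4 lay at 23.0 on the third (15.9%). The root mean square deviation from the group mean was 0.135 for Batf-/- replicate 1 and 0.129 for wild-type replicate 4, against 0.102 to 0.107 for the other 6 arrays. The number of arrays limits the precision, and the median 95% confidence interval of a difference reached 0.16 on the log2 scale to either side. In bulk RNA such as this, fewer cells that express a gene and less RNA of it per cell cannot be told apart.

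Batf itself was far lower in every Batf-/- array, though not at the lowest signals of the array. The probe set for the gene, which lies at chr12:85686720-85709087 in GRCm38.p6, read 8.63, 8.80, 8.83 and 9.19 in wild-type replicates 1 to 4 and 6.77, 5.56, 5.61 and 6.00 in Batf-/- replicates 1 to 4, as log2 intensities. The groups did not overlap, and Batf-/- replicate 1 held the highest signal of its group. The difference was -2.88 ± 0.24 (log2, SE; 95% confidence interval -3.40 to -2.35; limma adjusted p = 0.000223), a 7.34-fold lower intensity. Without Batf-/- replicate 1 and wild-type replicate 4 it was -3.03. In naive arrays Batf read 9.19 and 9.36 in wild type and 5.6, 6.06 and 5.94 in Batf-/- cells, a difference of -3.41. The wild-type signal was thus no lower in the naive arrays than at day 3. Whether this probe set lies inside the deleted segment is not stated in the labels.

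The genotypes differed in 534 of 18194 genes at day 3 (2.94%), with 270 higher in Batf-/- cells (1.48%) and 264 lower (1.45%), at a limma adjusted p below 0.05. Among single probe sets 893 of 34958 passed (2.55%). Most of these differences were small. Their median size was 0.40 on the log2 scale, 353 of the 534 were under 0.5, and 36 genes (0.198%) differed by at least 2-fold, 15 upward (0.0824%) and 21 downward (0.115%). The median over all genes was 0.01, with quartiles at -0.06 and 0.09. The 4 arrays of each genotype did not overlap in 2326 genes (12.8%), among them all but 1 of the 534. Leaving out both arrays that stand apart, an alternative added after the data were seen, gave 685 genes (3.76%), of which 430 were among the 534. Leaving out a single array gave 616 genes without Batf-/- replicate 1 and 552 without wild-type replicate 4, but 285, 244 and 291 without wild-type replicates 1, 2 and 3, and 233, 245 and 303 without Batf-/- replicates 2, 3 and 4. In every one of these 8 fits 208 genes passed. With the spread pooled over all 13 arrays, 220 genes passed.

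**Figure D1:**
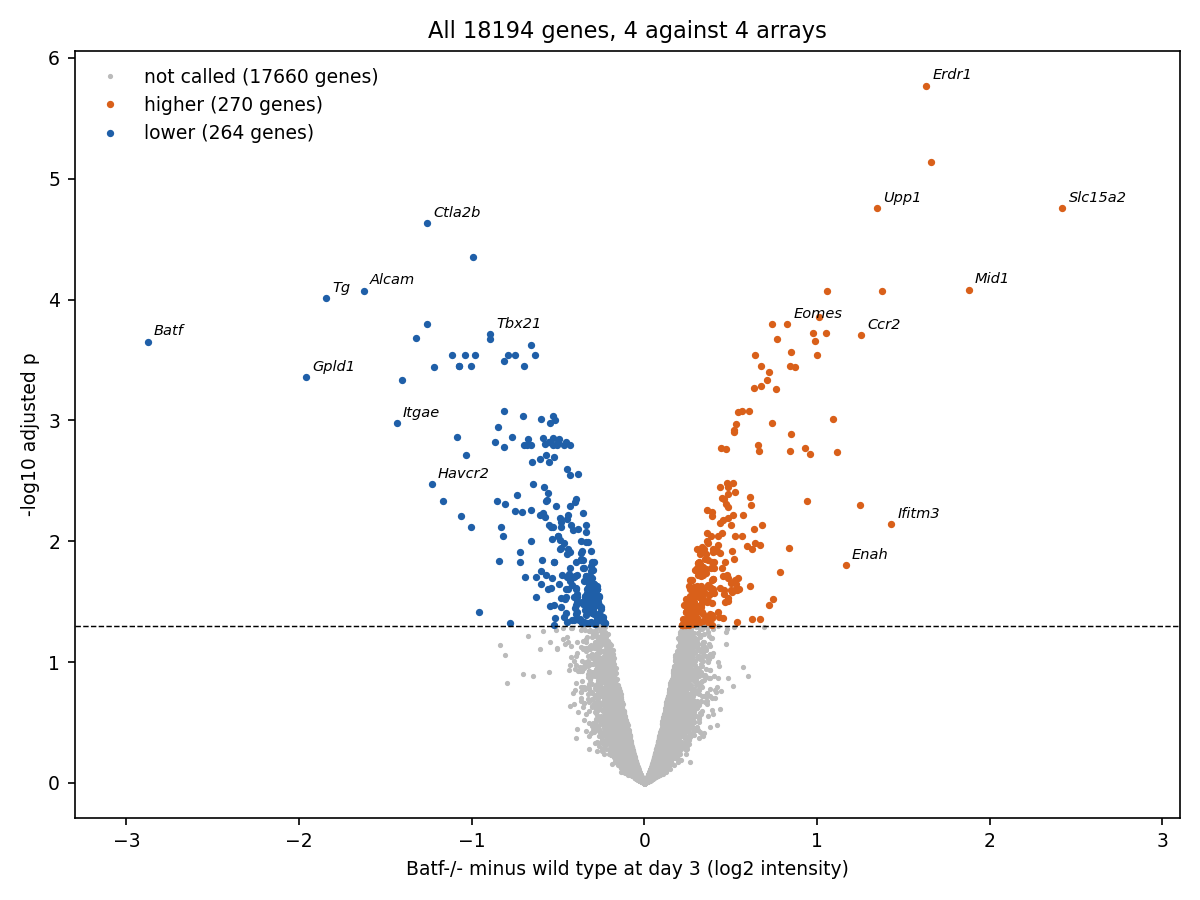
Each of the 18194 genes is a point, with its Batf-/- minus wild-type difference at day 3 on the horizontal axis (log2 intensity) and -log10 of the limma adjusted p on the vertical axis, and the dashed line marks an adjusted p of 0.05. The 270 orange genes are higher and the 264 blue genes lower in Batf-/- cells, Batf lies farthest left at -2.88 and Slc15a2 farthest right at 2.42.

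The largest decreases after Batf fell on surface receptors and adhesion molecules, on protease inhibitors of the Ctla2 family and on transcription factors. Largest increases and decreases were picked only among genes whose groups did not overlap, so the lack of overlap in them follows from that choice. Alcam, the adhesion molecule CD166 that binds CD6 on T cells, read 8.18, 7.65, 7.98 and 7.77 in wild-type replicates 1 to 4 and 6.39, 6.29, 6.31 and 6.08 in Batf-/- replicates 1 to 4. Every Batf-/- array lay more than a full log2 unit below every wild-type array. The difference was -1.63 ± 0.11 (limma adjusted p = 8.44e-05), a 3.09-fold lower intensity, and 4 of the 5 Alcam probe sets passed. Itgae, the alpha chain of the CD103 integrin that holds T cells to epithelium, read 6.69, 6.89, 6.72 and 6.85 in wild type and 5.90, 5.24, 5.14 and 5.12 in Batf-/- cells. Batf-/- replicate 1 was the highest of its group and still lay below all wild-type arrays. Itgae fell by 1.44 ± 0.15 (limma adjusted p = 0.00105), and both of its probe sets passed. Klrk1, which encodes the activating receptor NKG2D, read 8.90, 9.0, 9.04 and 9.19 in wild type and 8.15, 7.81, 7.73 and 7.59 in Batf-/- cells. The groups did not overlap, and the difference was -1.22 ± 0.11 (limma adjusted p = 0.000364).

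Il7r, the receptor chain for the survival cytokine IL-7, was high in both genotypes and lower in all Batf-/- arrays, at 10.31, 10.45, 10.35 and 10.55 in wild type and 9.59, 9.40, 9.21 and 9.16 in Batf-/- cells. It fell by 1.08 ± 0.10 (limma adjusted p = 0.000357) in this probe set, and its other probe set passed as well. Havcr2, which encodes the inhibitory receptor TIM-3, read 6.03, 5.66, 5.78 and 5.97 against 4.91, 4.82, 4.69 and 4.10. The Batf-/- mean lay among the dimmest 40% of probe sets, so the difference of -1.23 ± 0.16 (limma adjusted p = 0.00339) is in measured intensity near the background. Kit, the receptor for stem cell factor, fell by 1.09 ± 0.12 (limma adjusted p = 0.00138), and its second, dimmer probe set differed by -0.25 without passing.

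The Ctla2 genes encode small proteins that resemble the propeptides of cathepsins and inhibit cysteine proteases of that family. Ctla2a was among the brighter genes of these cells, at 12.11, 12, 11.98 and 12.08 in wild type and 10.67, 11.05, 11.19 and 10.96 in Batf-/- cells. Ctla2b read 10.41, 10.24, 10.31 and 10.48 against 9.23, 9.04, 9.09 and 9.04. Both pairs of groups lay apart by clearly more than their own spread. The differences were -1.08 ± 0.10 for Ctla2a (limma adjusted p = 0.000357) and -1.26 ± 0.07 for Ctla2b (limma adjusted p = 2.34e-05), and because the genes are close paralogs the probe sets may share signal.

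Enzymes and other proteins made up the rest of the largest decreases. Gpld1, a phospholipase that releases GPI-anchored proteins, read 7.35, 7.26, 7.89 and 6.98 in wild type and 5.78, 5.11, 5.41 and 5.33 in Batf-/- cells, a difference of -1.96 ± 0.19 (limma adjusted p = 0.000441). Tg, whose product thyroglobulin is best known as the precursor of thyroid hormone, read 7.97, 7.87, 7.74 and 7.97 against 6.48, 5.86, 5.83 and 6.01, a difference of -1.84 ± 0.13 (limma adjusted p = 9.68e-05). In both genes all Batf-/- arrays lay below all wild-type arrays, and replicate 1 was the highest Batf-/- array. Rab4a, a GTPase of early recycling endosomes, fell by 1.40, and both of its probe sets passed. Ell2, an elongation factor for RNA polymerase II, fell by 1.32 and the zinc finger gene Zfp365 fell by 1.26.

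The largest increases held genes of membrane transport, the interferon-induced Ifitm family, a nucleoside enzyme and a chemokine receptor. Erdr1, a gene named for its induction in erythroid differentiation, read 8.92, 9.11, 8.93 and 9.01 in wild type and 10.59, 10.60, 10.63 and 10.67 in Batf-/- cells. The spread within each group was small against the gap, and the difference was 1.63 ± 0.06 (limma adjusted p = 1.69e-06). The Erdr1 probe set used is of a type that can bind more than its own transcript, and the second Erdr1 probe set, which is dim, differed by 0.55 (limma adjusted p = 0.059). Upp1, a uridine phosphorylase that splits uridine into uracil and a sugar phosphate, read 5.19, 4.94, 5.13 and 5.07 in wild type and 6.54, 6.46, 6.40 and 6.33 in Batf-/- cells. All Batf-/- arrays lay more than a full log2 unit above all wild-type arrays, and Upp1 rose by 1.35 ± 0.07 (limma adjusted p = 1.74e-05). Ccr2, the receptor for the monocyte chemoattractant CCL2, read 6.67, 6.40, 6.56 and 6.88 in wild type and 7.76, 8.04, 7.84 and 7.89 in Batf-/- cells. It rose by 1.26 ± 0.10 (limma adjusted p = 0.000196), and 3 of its 4 probe sets passed.

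Ifitm1 and Ifitm3 encode membrane proteins that are induced by interferons and restrict the entry of viruses. Ifitm1 read 9.88, 9.90, 9.90 and 9.94 in wild type and 10.81, 11.13, 11.03 and 10.87 in Batf-/- cells. Ifitm3 read 6.50, 6.27, 6.74 and 5.55 against 7.43, 7.77, 7.80 and 7.78. Ifitm1 was tight within each genotype, whereas wild-type replicate 4 lay well below the other wild-type arrays for Ifitm3. The differences were 1.06 ± 0.07 (limma adjusted p = 8.44e-05) for Ifitm1 and 1.43 ± 0.21 (limma adjusted p = 0.00724) for Ifitm3. Neither passed when the spread was pooled with the naive arrays, at adjusted p of 0.49 and 0.12.

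Slc15a2, a proton-coupled peptide transporter, showed the largest increase in a probe set that was near the background in wild type. Its probe set read 3.78, 4.18, 4.44 and 3.86 in wild type and 6.56, 6.50, 6.43 and 6.44 in Batf-/- cells, a difference of 2.42 ± 0.13 (limma adjusted p = 1.74e-05). The other 2 Slc15a2 probe sets differed by 0.04 and 0.07 and did not pass, so the increase rests on 1 of 3 probe sets. Mid1, a microtubule-associated ubiquitin ligase, likewise rose by 1.88 ± 0.13 from a dim wild-type level (limma adjusted p = 8.26e-05). Its other 2 probe sets differed by 0.36 and -0.17 without passing. Mid1 (chrX:169685199-169990798) lies close to Erdr1 (chrX:170010526-170018797), and whether their rises share a local cause was not tested. Ptger3, a prostaglandin E2 receptor, rose by 1.25 from a wild-type mean among the dimmest probe sets, and Morc1, a gene of germ cell development, rose by 1.0 from a similar level.

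The remaining named increases were Rpl39l, a paralog of a ribosomal protein gene, by 1.37, the actin regulator Enah by 1.17, the extracellular matrix glycoprotein Emilin2 by 1.12, the UDP-sugar receptor P2ry14 by 1.09, the cytokine Tgfb3 by 1.05 and the lysine methyltransferase Vcpkmt by 1.01. Rpl39l may share signal with copies of its parent gene. The call of Enah held in 5 of 8 fits with an array removed and its 6 probe sets averaged 0.35. All 30 genes of both directions passed without both arrays that stand apart, and 29 of 30 passed in every fit that left out an array. With the spread pooled over the 13 arrays, 25 of 30 passed. The exceptions were Ifitm1, Ifitm3, Emilin2 (adjusted p = 0.2), Ptger3 (adjusted p = 0.24) and the transcription factor gene Id3 (adjusted p = 0.082). Batf-/- replicate 1 was the Batf-/- array nearest to the wild-type mean in 23 of the 30 genes.

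**Figure D2:**
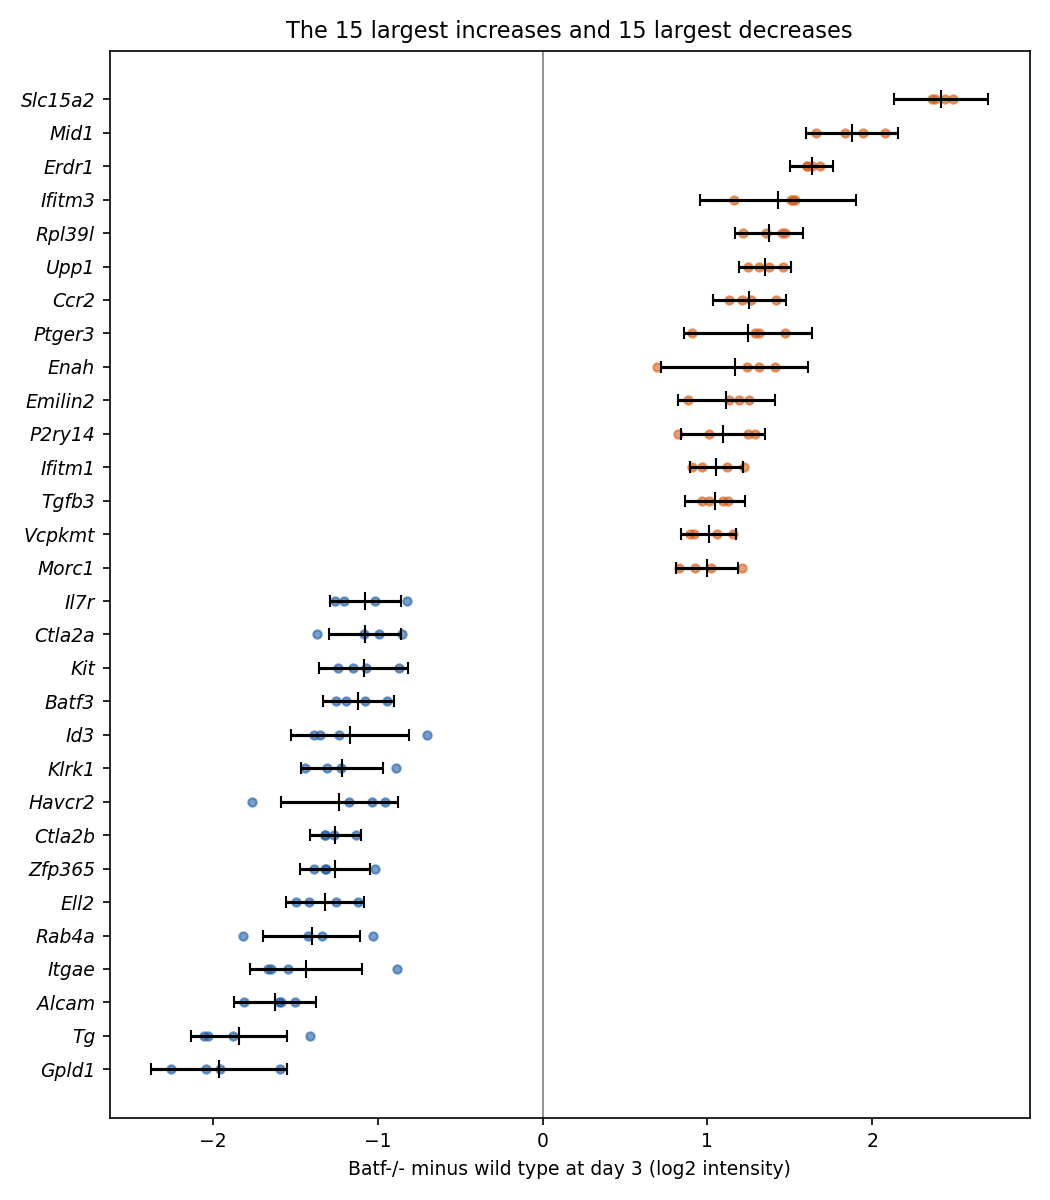
The 15 largest increases and 15 largest decreases after Batf, with a line for each gene, with the difference from the wild-type mean at day 3 on the horizontal axis (log2 intensity). Dots are the 4 Batf-/- arrays, and the black mark with its bar is the fitted difference with its 95% confidence interval, from -1.96 for Gpld1 to 2.42 for Slc15a2.

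Promoter sequence was set beside these genes because AP-1 sites are where BATF and JUN bind. RefSeq promoter windows of GRCm38.p6, from 250 bases before the start of a gene to 50 after it, were found for 14453 of the measured genes. The AP-1 motif TGANTCA, where N is any base, on either strand was present in 7.54% of all these genes, in 8.70% of those higher in Batf-/- cells (20 of 230) and in 8.96% of those lower (19 of 212). Among the largest increases 3 of the 12 genes with a window held it, and among the largest decreases 4 of 12. A composite motif of an interferon response element and an AP-1 element, spelled TTTC, 4 bases of any kind and TGANTNA, was present in 0.208% of all genes, in 0% of those higher and in 0.472% of those lower. The interferon response core, spelled GAAA, 2 bases of any kind and GAAA, stood at 3.63%, 4.78% and 5.19%, and the T-box core AGGTGTGA at 1.29%, 0.87% and 1.42%. These matches describe letters in a short window and do not show binding.

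Windows of 6 genes are shown to let the motif be seen in its context, with the AP-1 motif in capitals and the strand of the gene read 5′ to 3′. Each stretch holds up to 40 bases on either side of the motif and stops 30 bases after the transcription start, which shortens that of Klrk1. They belong to Ifitm3 at chr7:141010803-141010889 on the minus strand, Upp1 at chr11:9117923-9118009 on the plus strand and P2ry14 at chr3:59153648-59153734 on the minus strand, which were higher in Batf-/- cells. The others belong to Ctla2b at chr13:60897544-60897630 on the minus strand, Havcr2 at chr11:46454691-46454777 on the plus strand and Klrk1 at chr6:129623835-129623887 on the minus strand, which were lower. In Upp1 the motif starts 45 bases before the transcription start, and in Klrk1 at the base 18 after it.
Ifitm3: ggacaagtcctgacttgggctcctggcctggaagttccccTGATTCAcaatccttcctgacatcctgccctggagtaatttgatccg
Upp1: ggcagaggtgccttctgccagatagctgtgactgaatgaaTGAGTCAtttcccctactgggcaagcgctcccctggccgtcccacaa
P2ry14: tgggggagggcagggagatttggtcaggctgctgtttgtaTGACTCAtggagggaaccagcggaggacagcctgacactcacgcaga
Ctla2b: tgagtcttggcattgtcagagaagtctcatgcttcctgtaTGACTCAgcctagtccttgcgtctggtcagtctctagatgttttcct
Havcr2: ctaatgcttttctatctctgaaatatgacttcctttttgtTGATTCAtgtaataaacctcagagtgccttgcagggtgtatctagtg
Klrk1: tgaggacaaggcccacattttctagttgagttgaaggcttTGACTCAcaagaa

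Among transcription factors, AP-1 family genes and factors that set effector and memory fate moved in both directions. Gene lists from here on were chosen with earlier results of these data known. Shares above that of all genes may partly follow from that choice. Of 20 AP-1 and related leucine zipper genes measured, 1 rose and 3 fell, Batf included (20% against 2.94% of all genes), with a median difference of 0.01. Batf3, a close relative of Batf that can also pair with JUN, read 7.48, 7.52, 7.85 and 7.74 in wild type and 6.71, 6.39, 6.57 and 6.46 in Batf-/- cells. The groups did not overlap, and Batf3 fell by 1.12 ± 0.10 (limma adjusted p = 0.000285). Jdp2, a repressor that dimerises with JUN, fell by 0.50 ± 0.06 (limma adjusted p = 0.00161), and its dimmer probe set differed by 0.07. Jdp2 did not pass with the spread pooled over 13 arrays (adjusted p = 0.36). Jun itself, at 8.54 to 8.58 in wild type and 8.78 to 9.02 in Batf-/- cells, rose by 0.31 (limma adjusted p = 0.0253), a call held in 2 of 8 fits with an array removed. Of 9 interferon regulatory factors 1 passed (11.1%). Irf4, the partner of BATF at composite sites, rose by 0.28 (limma adjusted p = 0.0484), a call that was lost without both arrays that stand apart and held in 1 of 8 fits. Irf8 differed by 0.08 and did not pass. None of the 14 Egr, Nr4a and NFAT genes measured, which respond to or carry receptor signals, passed in the limma test, and 3029 of all genes were at an unadjusted p below 0.05.

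Of 28 effector and memory fate factors 3 rose and 6 fell (32.1%), with a median of -0.08. Tbx21, which encodes the effector factor T-bet, read 8.12, 8.08, 8.13 and 8.28 in wild type and 7.38, 7.25, 7.29 and 7.11 in Batf-/- cells. Eomes, its T-box relative, moved the other way, at 9.77, 9.88, 9.85 and 9.99 in wild type and 10.63, 10.77, 10.76 and 10.66 in Batf-/- cells. Neither gene's groups overlapped. The differences were -0.89 ± 0.07 for Tbx21 (limma adjusted p = 0.000193) and 0.83 ± 0.06 for Eomes (limma adjusted p = 0.000161). Eomes did not pass with the spread pooled over the 13 arrays (adjusted p = 0.18), where its 3 Batf-/- naive arrays ranged from 8.76 to 10.49. Id3, an inhibitor of E proteins that marks naive and memory precursor cells, read 7.75, 7.89, 7.86 and 8.31 in wild type and 7.25, 6.71, 6.56 and 6.60 in Batf-/- cells. Batf-/- replicate 1 was the highest of its group and wild-type replicate 4 the highest of the other, and Id3 fell by 1.17 ± 0.16 (limma adjusted p = 0.00461). Ikzf2, which encodes the zinc finger factor Helios, fell by 0.70, from 10.14 to 10.33 in wild type to between 9.43 and 9.61 in Batf-/- cells (limma adjusted p = 0.000357). Gata3, a factor of T cell development and type 2 responses, fell by 0.44 (limma adjusted p = 0.0247), a call held in 2 of 8 fits.

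The other 4 members of that list that passed were named after their values were seen, or come from another list. Tox, a factor linked to T cell exhaustion, fell by 0.39 and the Notch effector Rbpj fell by 0.40, while Runx1, a regulator of T cell development, rose by 0.32 and Klf2, a factor of quiescence and lymph node homing, rose by 0.27. Their calls held in 3, 4, 4 and 1 of the 8 fits. Bcl6, a repressor that favours memory and helper fates, differed by -0.84 ± 0.21 without passing (limma adjusted p = 0.0716), and Batf-/- replicate 1 at 6.70 lay within the wild-type range of 6.61 to 7.25. Ahr, a ligand-activated factor, differed by 0.39 (limma adjusted p = 0.0626). Without both arrays that stand apart 6 genes of the list rose and 9 fell, with Bcl6 among the falls and Ahr among the rises.

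**Figure D3:**
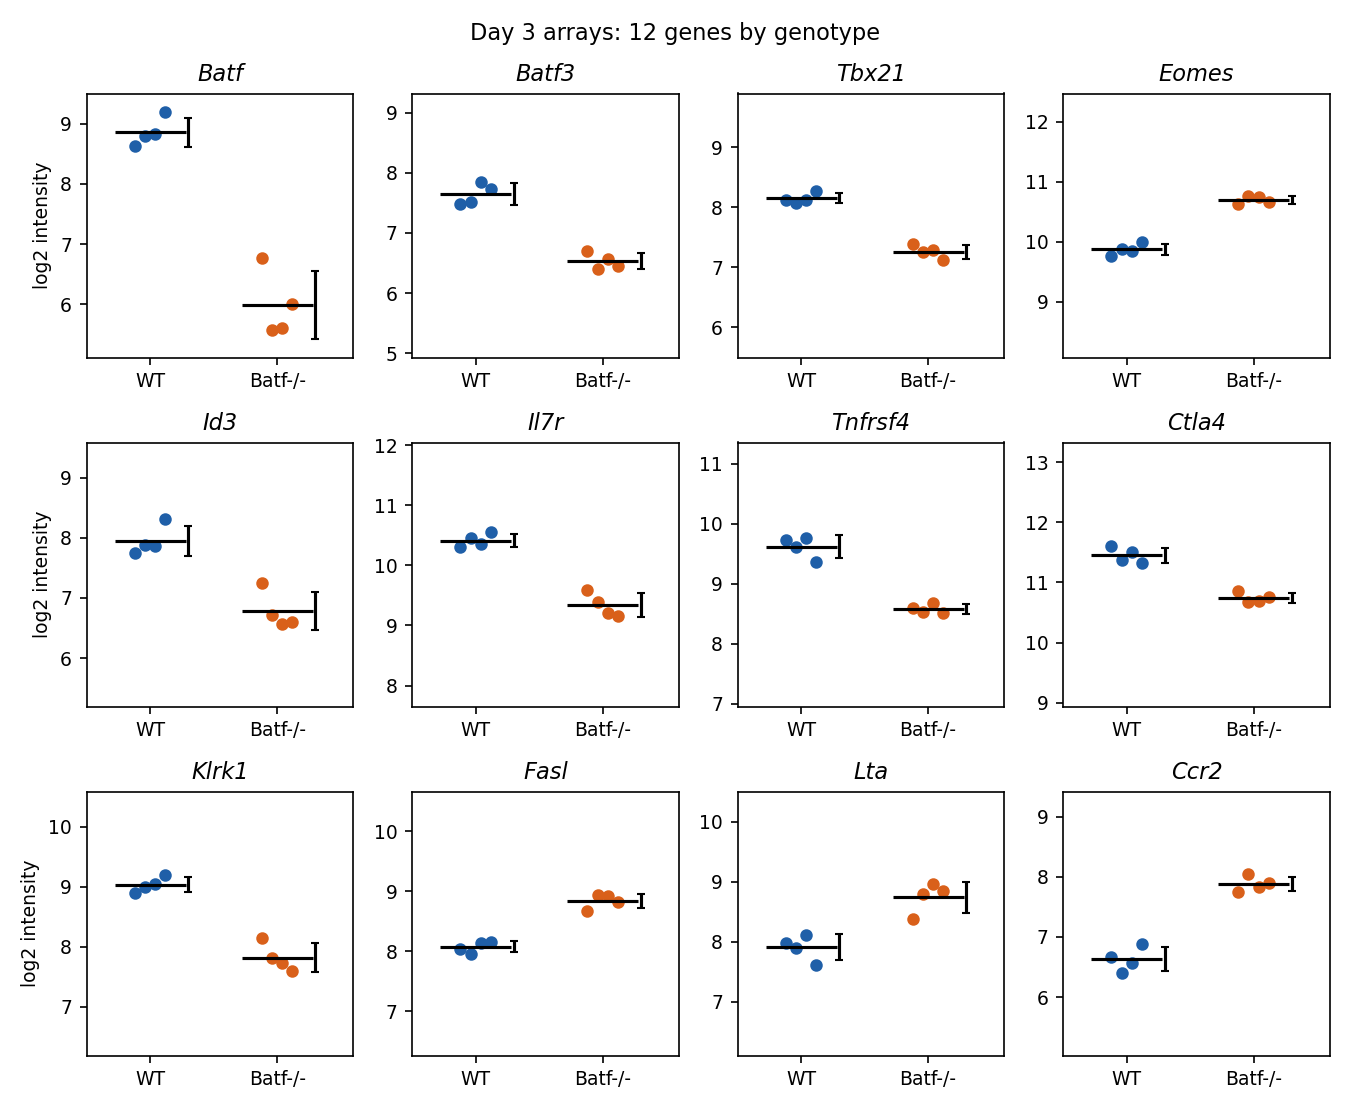
Log2 intensity of 12 genes in the 4 wild-type (blue) and 4 Batf-/- (orange) arrays at day 3, with the mean as a line and the SD as a bar beside the points, and every panel spans the same number of log2 units. Tbx21 is lower in every Batf-/- array (7.11 to 7.38 against 8.08 to 8.28), whereas Eomes is higher in every one (10.63 to 10.77 against 9.77 to 9.99).

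Of the 10 genes for receptors and ligands that restrain or costimulate T cells and passed, 8 were lower in Batf-/- cells. Of 16 inhibitory receptor and ligand genes 0 rose and 4 fell (25%), with a median of -0.04. Ctla4, which competes with CD28 for its ligands, was strongly expressed in effector cells of both genotypes and read 11.60, 11.38, 11.51 and 11.33 in wild type against 10.86, 10.67, 10.70 and 10.75 in Batf-/- cells. All Batf-/- arrays were lower, and Ctla4 fell by 0.71 ± 0.07 (limma adjusted p = 0.000927). Cd200, a ligand that calms myeloid cells, fell by 0.56 and Cd160, a receptor for HVEM, fell by 0.52, with calls held in 3 and 1 of 8 fits, and Havcr2 was the fourth. Pdcd1, which encodes PD-1, differed by -0.29 without passing (limma adjusted p = 0.0985).

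Of 24 genes of the TNF and CD28 families of costimulation 2 rose and 4 fell (25%), with a median of 0.02. Tnfrsf4, which encodes the costimulatory receptor OX40, read 9.73, 9.62, 9.77 and 9.36 in wild type and 8.60, 8.53, 8.69 and 8.51 in Batf-/- cells. The groups lay apart, and Tnfrsf4 fell by 1.04 ± 0.09 (limma adjusted p = 0.000285). OX40 is also prominent on CD4+ T cells. The summed intensity of 6 CD4+ T cell genes ran from 825 to 1061 in wild type and from 539 to 609 in Batf-/- arrays, with Tnfrsf4 as its main part. Cd4 itself was at 5.53 and 5.59 and did not pass, and Foxp3, Cd40lg and Il21 were near the background. Slamf6, a homophilic receptor of the SLAM family, fell by 0.81 in 1 of its 3 probe sets, and Icos, a CD28 relative, fell by 0.40 from a range of 10.29 to 10.41 to a range of 9.86 to 10.01. Cd28, named after its values were seen, fell by 0.30, a call held in 4 of 8 fits. Tnfsf11, which encodes RANK ligand, rose by 0.56 from a dim level and Tnfsf8, which encodes CD30 ligand, rose by 0.40.

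Of 13 NK type receptor genes 0 rose and 2 fell (15.4%, against 2.94% of all genes), Klrk1 and Klrd1. In both genotypes 8 of the 13 were dim. Klrd1 encodes CD94, which pairs with NKG2 chains, and fell by 0.45 (limma adjusted p = 0.0389), a call held in 2 of 8 fits. Its values were 11.20, 11.18, 11.21 and 11.60 in wild type and 10.96, 10.88, 10.79 and 10.74 in Batf-/- cells, so that wild-type replicate 4 stood above the rest. The summed intensity of 5 NK cell marker genes overlapped between genotypes, at 144 to 173 in wild type and 153 to 185 in Batf-/- arrays. Of 32 cytokine receptor genes only Il7r passed (3.12%, near the 2.94% of all genes). The integrins and adhesion molecules held 3 falls among 29 genes (10.3%), which were Alcam, Itgae and Itga4, the alpha chain of VLA-4, at -0.30 with a call in 2 of 8 fits.

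Homing receptors split in both directions, with 3 rises and 2 falls among 23 chemokine and egress receptor genes (21.7%) and a median of -0.05. Cxcr6, which guides T cells to tissue that displays CXCL16, read 8.60, 8.74, 8.65 and 9.11 in wild type and 8.17, 7.83, 7.56 and 7.53 in Batf-/- cells, and fell by 1.0 ± 0.15 (limma adjusted p = 0.00766). S1pr1, the receptor that lets T cells leave lymph nodes, fell by 0.40 (limma adjusted p = 0.0194), a call held in 5 of 8 fits. Ccr9, a receptor for gut homing, read 5.72, 5.68, 5.69 and 5.89 in wild type and 6.68, 6.82, 6.33 and 6.51 in Batf-/- cells, a rise of 0.84 ± 0.10 (limma adjusted p = 0.00179). Ccr2 and Gpr183, an oxysterol receptor, also rose, the latter by 0.49. Among 22 genes of naive and memory T cells 1 rose and 4 fell (22.7%), with a median of -0.14. Besides Klf2, Id3, Il7r and S1pr1 these were Dapl1 at -0.52, with a call in 1 of 8 fits.

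Genes that passed in the granule and death ligand list and in the cytokine list were all higher in Batf-/- cells. Of 25 granule and death ligand genes 5 rose and 0 fell (20%, with a median of 0.15). Fasl, the ligand of the death receptor FAS, read 8.03, 7.96, 8.14 and 8.15 in wild type and 8.67, 8.93, 8.92 and 8.82 in Batf-/- cells. Prf1, which encodes the pore-forming protein perforin, read 7.74, 7.87, 7.86 and 7.68 against 8.46, 8.33, 8.41 and 8.36. Neither gene's groups overlapped. Fasl rose by 0.76 ± 0.07 (limma adjusted p = 0.000545) and Prf1 by 0.61 ± 0.06 (limma adjusted p = 0.000836), although the dimmer of the 2 Prf1 probe sets differed by -0.08. The other 3 were serpins. Serpinb9, the inhibitor of granzyme B, rose by 0.64, Serpinb6b by 0.53 and Serpinb1a by 0.48. Serpinb1a did not pass with the spread pooled over 13 arrays (adjusted p = 0.64). The serpin gene Serpinb6a, which is not in the list, also passed. It was lower, by -0.58 in the limma fit without both arrays that stand apart (adjusted p = 0.0028). Gzmb, which encodes granzyme B, was at 13.91 in wild type and 13.98 in Batf-/- cells and Gzma at 7.38 and 7.33, and neither passed.

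Of 27 secreted cytokine and chemokine genes 6 rose and 0 fell (22.2%), with a median of 0.10. Tgfb3 showed the largest difference, at 5.84, 5.77, 5.83 and 5.50 in wild type and 6.70, 6.75, 6.86 and 6.83 in Batf-/- cells, and rose by 1.05 ± 0.08 (limma adjusted p = 0.000188). Lta, which encodes lymphotoxin alpha, read 7.98, 7.90, 8.12 and 7.61 in wild type and 8.37, 8.79, 8.95 and 8.84 in Batf-/- cells, and rose by 0.84 ± 0.14 (limma adjusted p = 0.0114). Wild-type replicate 4 and Batf-/- replicate 1 were the lowest arrays of their groups for Lta. Tnf rose by 0.47 and the IL-6 family cytokines Lif and Osm rose by 0.75 and 0.46, with calls held in 4, 1 and 3 of 8 fits. Ifng, which encodes interferon gamma and was named after its values were seen, rose by 0.33 with a call in 2 of 8 fits. Without both arrays that stand apart Ifng did not pass (adjusted p = 0.05004), and 5 genes of the list rose.

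Few signalling genes passed outside the Dusp, Spry and Spred genes, and the shares that follow are to be set beside the 2.94% of all genes. Of 30 genes of the T cell receptor complex and its proximal kinases 2 rose and 1 fell (10.0%), with a median of -0.08. The kinases Txk and Fyn rose by 0.30 and 0.27, and the ubiquitin ligase Cblb, a brake on receptor signals, fell by 0.28, each with a call in 1 or 2 of 8 fits, and Txk and Cblb did not pass without both arrays that stand apart (adjusted p = 0.063 for each). Of 15 Dusp, Spry and Spred genes, which dampen MAP kinase signals, 2 rose and 2 fell (26.7%). Spred2, an inhibitor of RAF activation, read 8.02, 7.88, 7.94 and 7.77 in wild type and 8.26, 8.45, 8.47 and 8.5 in Batf-/- cells, and rose by 0.52. The phosphatase gene Dusp1 rose by 0.48, whereas Dusp4 fell by 0.55 and Dusp14 by 0.39, with calls held in 8, 3 and 1 of 8 fits, and Dusp14 did not pass without both arrays that stand apart (adjusted p = 0.099). Among 20 Stat and Socs genes 2 rose (10%), the cytokine signalling inhibitors Socs2 at 0.40 and Socs1 at 0.33. Each had a call in 1 of 8 fits. Of the 23 genes of the Tgf-beta pathway only the ligand gene Tgfb3 passed (4.35%, near the share of all genes). Of the 27 PI3 kinase and mTOR genes 0 passed.

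Few genes of growth and division passed outside ribosome biogenesis. Of 25 ribosome biogenesis genes 6 rose and 0 fell (24.0%), and 23 of 25 had a positive difference, with a median of 0.17 against 0.01 for all genes. Polr1b, a subunit of RNA polymerase I, rose by 0.39, from 6.49 to 6.67 in wild type to between 6.83 and 7.03 in Batf-/- cells. The nucleolar genes Nolc1, Nop56, Gnl3 and Fbl rose by 0.36, 0.32, 0.29 and 0.26, and Nop16, named after its values were seen, by 0.26. Calls of the 6 held in 5, 8, 5, 2, 2 and 1 of 8 fits. None of 24 DNA replication genes, 24 mitosis genes, 27 genes of glycolysis and the hypoxia response, 26 genes of the respiratory chain or 24 genes of sterol and fatty acid synthesis passed in the limma test. Their medians lay between -0.05 and 0.05. Of 19 G1 cyclins and related genes 1 rose and 1 fell (10.5%, against 2.94% of all genes). Cdk6, a kinase of G1 entry, rose by 0.53 and the retinoblastoma gene Rb1 fell by 0.26. Their calls held in 3 and 2 of 8 fits.

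Most differences of the genes listed for the type I interferon response were positive, and 2 of these genes passed. The list does not hold Ifitm1 and Ifitm3, which are among the largest increases. Of its 22 genes 2 rose and 0 fell (9.09%, against 2.94% of all genes). A positive difference was found in 20 of 22, and the median was 0.16. Isg20, an exonuclease that degrades viral RNA, read 7.99, 7.81, 8.03 and 7.98 in wild type and 8.58, 8.66, 8.70 and 8.54 in Batf-/- cells, and rose by 0.67 ± 0.07 (limma adjusted p = 0.000519). Ifi27 rose by 0.32, a call held in 2 of 8 fits. Without both arrays that stand apart 4 genes of the list rose, with Isg20 among them, whereas Ifi27 did not pass (adjusted p = 0.060). The summed intensity of 9 monocyte and macrophage marker genes was 298 to 322 in Batf-/- arrays and 261 to 293 in wild type, which do not overlap, though 6 of the 9 were near the background and 0 passed. The part of such cells in the interferon and Ccr2 differences was not tested.

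In the remaining lists 0 to 2 genes passed. The shares of the lists that follow are to be set beside the 2.94% of all genes, and those of the enzyme, Bcl2 and chromatin lists lie near it. Among 18 amino acid and peptide transporters (11.1%) Slc15a2 rose and Slc38a9, a lysosomal arginine sensor, fell by 0.28, with a call in 0 of 8 fits. Among 23 serine, folate and nucleotide enzymes (4.35%) only Upp1 passed. P2ry14 and Entpd1, the ectonucleotidase CD39 that degrades extracellular ATP, were the rises among 16 purine receptor and ectonucleotidase genes (12.5%), the latter at 0.45. Atf6 and Eif2ak3, sensors of unfolded protein in the endoplasmic reticulum, fell by 0.39 and 0.34 among 22 genes of that response (9.09%). Rab4a and Rab10, a GTPase of exocytic traffic, fell among 29 genes of endosomal traffic (6.90%), the latter by 0.25. Bcl2l2, a survival gene, fell by 0.30 among 21 genes of the Bcl2 family and cell death (4.76%), and Ezh2, the methyltransferase of Polycomb repression, fell by 0.29 among 25 chromatin enzymes (4%). Calls of Slc38a9, Entpd1, Atf6, Rab10, Bcl2l2 and Ezh2 held in 0, 5, 2, 1, 1 and 5 of 8 fits, and Slc38a9 (adjusted p = 0.096) and Rab10 (adjusted p = 0.058) did not pass without both arrays that stand apart. Without both arrays that stand apart the number of calls moved by over 1.5 times in several small counts, such as from 2 to 4 among the Stat and Socs genes, from 3 to 5 among adhesion molecules, from 1 to 2 among cytokine receptors, from 2 to 1 among the Rab genes and from 0 to 1 for glycolysis.

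**Figure D4:**
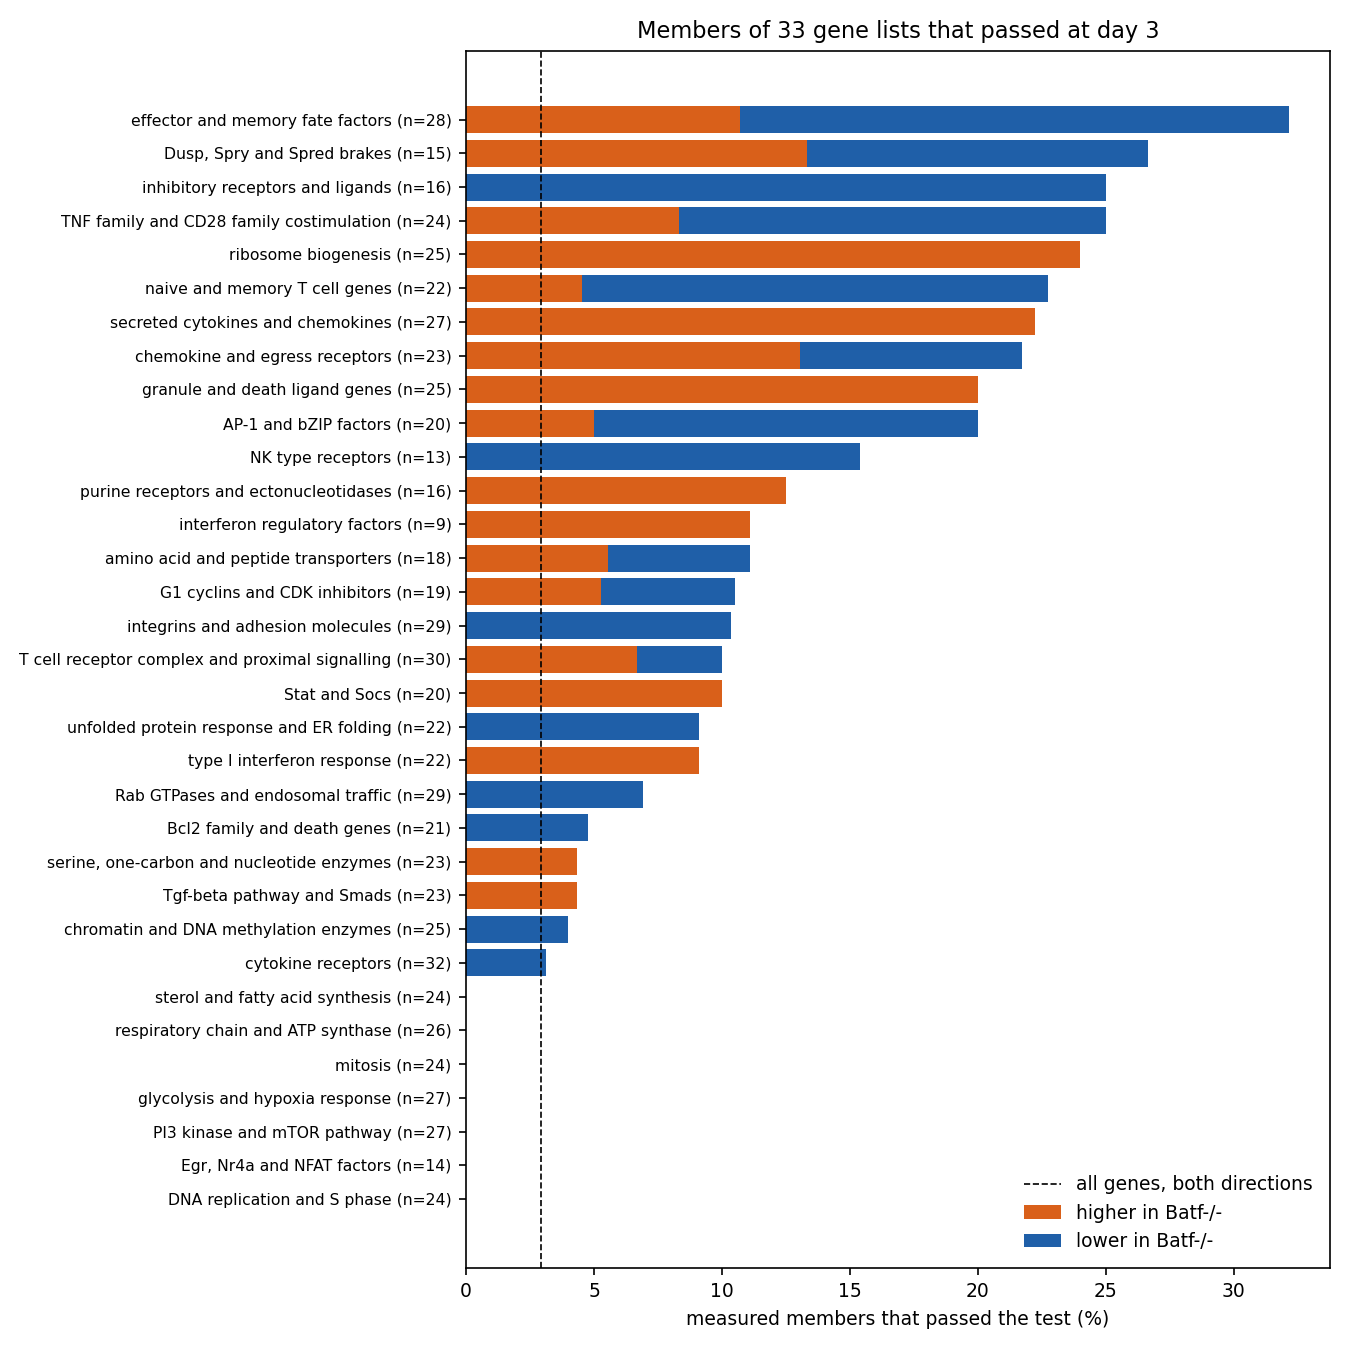
Share of the measured members of 33 gene lists that passed at day 3 (per cent), split into higher (orange) and lower (blue) in Batf-/- cells, with the number measured in brackets and the 2.94% of all genes as a dashed line. The fate factors have the largest share (32.1%), the bars of the granule and cytokine lists are all orange and the bar of the inhibitory receptors is all blue. Members and lists were chosen with earlier results of these data known, so their shares may partly follow from that choice. The 2.94% also covers dim genes, whose part differs by list. In both genotypes 1 of 28 fate factors and 12 of 27 cytokine genes were dim.

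Whether the day 3 differences were already present in naive cells was tested as the difference between the genotype effects in the 2 states, over all 13 arrays. Markers of other cell types were not alike in the naive arrays. Those of monocytes and neutrophils overlapped between genotypes, with a wide range in Batf-/- arrays, and those of B cells and plasma cells lay apart. Summed intensities of monocyte and macrophage genes were 863 to 874 in wild-type and 824 to 3932 in Batf-/- naive arrays, and those of neutrophil genes 565 to 679 and 330 to 9467. B cell genes summed to 1519 to 2416 and 2683 to 4329, and plasma cell genes to 6982 to 8058 and 9313 to 11752, which do not overlap. Their part in the naive differences, that of the monocyte gene Ccr2 included, was not tested. The difference between the states passed in 100 of 18194 genes (0.55%), with 24 positive and 76 negative. Among the 534 genes that differed at day 3 it passed in 45. It contains the day 3 difference by which the 534 genes and the 30 largest were chosen, so higher shares among them are built in. Of the 30 genes with the largest day 3 differences 11 passed. Several of them had only a small genotype difference before stimulation. Batf3 was at 6.28 and 6.49 in wild-type naive arrays and at 6.41, 6.33 and 6.39 in Batf-/- naive arrays, so its genotype effect at day 3 exceeded that in naive cells by -1.11 (limma adjusted p = 0.0073). Gpld1, Ctla2b, Upp1 and Morc1 had naive differences between -0.15 and 0.02, and their effects differed by -1.97, -1.28, 1.45 and 1.15 between the states. Tnfrsf4, Spred2 and Ctla4, which were named from the lists, differed by -0.99, 0.80 and -1.18. Ctla4 was near the background in wild-type naive cells, at 4.51 and 4.28, and at 5.15, 4.67 and 4.78 in Batf-/- naive cells.

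Other genes had a genotype difference of the opposite sign before stimulation. Klrk1 read 6.98 and 7.2 in wild-type and 7.99, 8.29 and 8.31 in Batf-/- naive arrays, so that Batf-/- cells were higher by 1.11 ± 0.15 as naive cells and lower by 1.22 at day 3, a difference of -2.32 between the states (limma adjusted p = 0.00038). The summed intensity of the 5 NK cell marker genes was 1004 to 1095 in wild-type and 1331 to 3476 in Batf-/- naive arrays, and the part of NK cells in the naive Klrk1 difference was not tested. Slc15a2 read 10.49 and 9.99 in wild-type and 8.99, 9.71 and 8.93 in Batf-/- naive arrays, far above its level at day 3, and its effect differed by 3.45 between the states (limma adjusted p = 0.00038). Erdr1 was also lower in Batf-/- naive arrays, at 10.52, 8.75 and 10.75 against 11.82 and 11.19, and differed by 3.13 (limma adjusted p = 0.02). Ccr9, a receptor that naive cells express strongly, was lower in Batf-/- naive cells by 0.60 and differed by 1.44. Alcam and Tg, both higher in Batf-/- naive cells by 0.36 ± 0.20 and 0.58 ± 0.19, differed by -1.98 and -2.43. Il7r, Spred2 and Upp1 passed in 4, 3 and 3 of 13 fits with an array removed, and the other 12 named genes in 12 or 13.

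A further group kept the sign of its naive difference. Ccr2 was higher in Batf-/- cells in both states, at 7.84 and 8.0 in wild-type and 9.90, 8.84 and 9.59 in Batf-/- naive arrays. Itgae and Id3 were lower in both, with naive means of 10.49 against 9.37 and of 9.76 against 8.64. Itgae read 10.55 and 10.43 in wild-type and 8.84, 9.79 and 9.48 in Batf-/- naive arrays. Id3 read 9.81 and 9.70 against 7.62, 8.98 and 9.32. In each of these genes Batf-/- naive replicate 1 lay farthest from the wild-type naive arrays. For these 3 genes the difference between the states did not pass. Of the 30 genes 19 had the same sign in both states, Ccr2, Itgae and Id3 among them. That count takes the sign of a naive difference of any size, such as the -0.012 of Batf3. The share over all genes was not computed, so the 19 genes cannot be read as differing before stimulation.

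**Figure D5:**
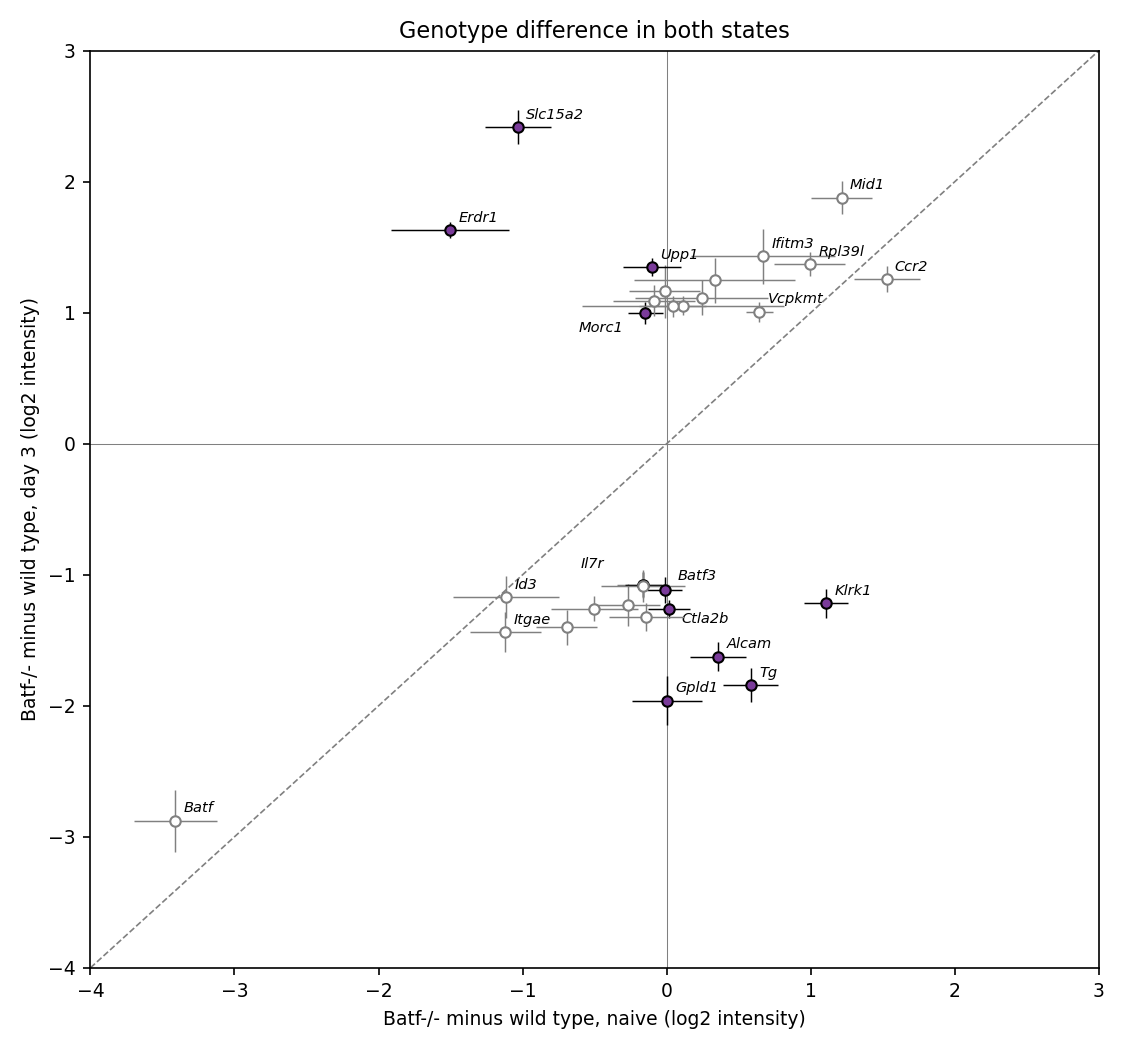
Batf-/- minus wild-type difference of Batf and the 30 genes in naive cells (horizontal axis) and at day 3 (vertical axis), both in log2 intensity, with bars for 1 standard error, which comes from the 13-array fit for naive cells and from the 8 arrays for day 3. Filled points passed the test of the difference between states, and the dashed line marks equal differences. Klrk1 lies at 1.11 in naive cells and -1.22 at day 3, while Slc15a2 lies at -1.03 and 2.42.

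Genes on the chromosome that carries Batf were looked at because a targeted allele travels with its neighbours. On chromosome 12 without Batf, 13 genes rose and 19 fell of 621 measured (5.15%), against 2.87% on the other chromosomes, and chromosome 13 reached 5.98%. Within 10 Mb of Batf 7 of 147 genes passed (4.76%) and within 20 Mb 13 of 291 (4.47%). Jdp2 lies 0.0881 Mb and Tgfb3 0.37 Mb from Batf. Noxred1, which rose by 0.48, lies 1.53 Mb from it, and Vcpkmt, among the largest increases, lies 16.1 Mb from it. For these and the other genes near Batf that passed, an effect of the protein's absence and an effect of the altered region cannot be told apart.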

How the data were processed

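RNA of 13 arrays was summarised to probe set intensities with RMA (version not given), per the submitters' processing notes. This method adjusts for background, makes array distributions alike and merges a set's probes. The deposited intensity values are on a linear scale and were converted to log2 here, with no further normalisation. The table holds 45101 probe sets, of which 34958 have 1 symbol in the platform annotation, 932 have several and 9211 have none. Only the first were tested. Symbols were matched to RefSeq (GRCm38.p6) by gene identifier for 34754 probe sets. For the 9012 genes with several probe sets the one with the highest mean over the 13 arrays stands for the gene.

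The 8 day 3 arrays were fitted in limma 3.58.1 (R 4.3.3) with eBayes (6 residual and 4.30 prior degrees of freedom), and two-sided p-values were adjusted by Benjamini-Hochberg over 34958 probe sets. An adjusted p below 0.05 counts as passed, differences are log2 with their standard error, and adjusted p-values come from this fit unless stated. The comparison of states used the 13 arrays. Dim means the lowest 40% of probe sets, with mean log2 below 4.72. Genes named are Batf, the 15 largest increases and decreases that passed without overlap, clone names left out, and in each of 33 lists up to 5 members that passed and 2 that did not. Other genes, such as Gzmb, Cd4, Irf8 and the marker genes, are named as values of their list. Members and lists were chosen with earlier results of these data known. Alternatives were other normalisations, probe set summaries, eBayes settings, array weights, a replicate block and leaving out arrays. The scripts were tested on simulated data. Depth does not apply to arrays, whose number limits the precision.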

Additional observations from a re-analysis of the deposited data

Results flagged for a closer look

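In 18 of 308 groups of 4 day 3 arrays, which are both genotypes of the 153 named genes and of the leading principal component, 1 array lay far from the other 3. Chance gives about 1 in 20 groups, or 15.4 here. For Batf-/- replicate 1 this was so in Gpr183 (log2 intensity 8.0), Ifitm3 (7.43), Itgae (5.90), Sla2 (9.36) and Slc7a1 (9.63). For wild-type replicate 4 it was so in Cd160 (8.46), Cdk6 (10.29), Klrd1 (11.60), Slamf6 (8.55), Cdh1 (5.22), Inpp4b (8.19), Nt5e (6.89) and Tnfaip3 (9.49). The rest were wild-type replicate 3 in Cd200 (5.54) and Osm (8.38), wild-type replicate 2 in Rpl39l (5.38) and Fasn (9.72), and Batf-/- replicate 2 in Nop56 (10.45).

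Named genes that passed at day 3 were chosen by a difference that the test between states contains. The genotype difference at day 3 differed from that in naive cells, by the limma test of that difference, for 15 of the 88 named genes that passed at day 3. It was more positive at day 3 for Slc15a2 (3.45), Erdr1 (3.13), Upp1 (1.45), Ccr9 (1.44), Morc1 (1.15) and Spred2 (0.80). It was more negative at day 3 for Tg (-2.43), Klrk1 (-2.32), Alcam (-1.98), Gpld1 (-1.97), Ctla2b (-1.28), Ctla4 (-1.18), Batf3 (-1.11), Tnfrsf4 (-0.99) and Il7r (-0.91).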

How the results depend on the processing

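Counts at day 3 (534 genes, 270 higher and 264 lower) moved by over 1.5 times under several alternatives, and the cause was not tested. The fit over all 13 arrays gave 220 (105 higher, 115 lower), leaving out the dimmest 40% of probe sets 943 (515 and 428), an intensity trend in eBayes 1189 (640 and 549), array weights 903 (453 and 450) and a 2-fold minimum 36 (15 and 21). Dropping single arrays in turn gave 233 to 616 genes (108 to 273 higher, 125 to 343 lower). Quantile normalisation, median centring, robust eBayes, adjustment over 1 probe set per gene, averaged probe sets, any probe set passing, and leaving out both arrays that stand apart gave 507 to 724. Batf passed in each fit, with differences from -3.14 to -2.74. The 100 genes that differed between states became 333 with array weights and 50 to 254 when an array was left out (254 without Batf-/- naive replicate 2, 176 without Batf-/- naive replicate 1). Of the named genes, Tyms changed sign, from -0.16 to 0.011 with the mean of its probe sets, and passed in neither. Of the 87 named genes that passed besides Batf, 50 passed over 13 arrays and 79 with the mean of probe sets, where Irf4, Itga4, Rb1, Bcl2l2, Socs2, Gpr183, Atf6 and Eif2ak3 did not. Besides Ifitm1, Ifitm3, Emilin2, Ptger3, Id3, Eomes, Serpinb1a and Jdp2, the genes lost over 13 arrays were Atf6, Bcl2l2, Cblb, Cd160, Cd200, Cdk6, Dapl1, Dusp14, Entpd1, Ezh2, Fbl, Fyn, Gata3, Gnl3, Ifi27, Irf4, Itga4, Jun, Klf2, Klrd1, Nolc1, Polr1b, Rab10, S1pr1, Slc38a9, Socs1, Socs2, Tnfsf11 and Txk.

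Same-numbered arrays showed no clear shared deviation (correlations -0.21, -0.13, 0.08 and -0.18). Arrays handled together need not deviate together, so these values cannot show whether the replicate numbers pair the arrays. The labels do not say so either. With the replicate block 211 genes passed at day 3 (95 higher, 116 lower) and 32 between states.

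With 4 arrays a genotype, differences below about 0.22 were not called. Dim probe sets understate changes. Day 3 and naive groups share no arrays, but naive groups hold only 2 and 3, so the naive differences are less certain.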
